A study of Mus musculus with 10 samples.

Results

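Levels of 10 genes that mark oligodendrocyte precursor cells or set the identity of the oligodendrocyte lineage were followed in the dentate gyrus of mice between 4 and 12 weeks of age. They are the receptor gene Pdgfra, the proteoglycan gene Cspg4, the transcription factor genes Olig1, Olig2, Sox10 and Nkx2-2, the secreted protein genes C1ql1 and Matn4, and the membrane protein genes Lhfpl3 and Cacng4. Each was represented by the probe set whose platform annotation named it alone. All 10 had exactly 1 such probe set, so they make up 10 of the 19752 genes measured. The samples were dissected dentate gyri of mice of a strain written C56BL/6J in the labels, with no treatment and no genetic change named. Total RNA was hybridised to 10 whole-transcript Affymetrix arrays, with 2 arrays at each of 4, 6, 8, 10 and 12 weeks. No label states if same-age arrays are of different animals. The p-values below therefore cover only array-to-array spread, part of which can be technical.

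Oligodendrocyte precursors are the dividing glial cells that populate the whole brain and keep giving rise to myelinating oligodendrocytes after birth. They are recognised by the receptor for platelet-derived growth factor (PDGF) on their surface, encoded by Pdgfra, and by the NG2 proteoglycan, encoded by Cspg4. Olig1, Olig2 and Sox10 stay active from precursor to myelinating cell, while Nkx2-2 is best known from the step at which precursors start to differentiate. In the dentate gyrus these cells lie among granule neurons and their progenitors, and a bulk sample holds them as a minority.

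Levels are log2 values per probe set as deposited, and levels of different genes are not compared with each other because each probe set has its own brightness. Pearson correlations across genes between arrays ran from 0.994 to 0.998. The lowest mean correlation with other arrays was 0.9952, at 8 weeks replicate 1. The array of 6 weeks replicate 1 had 13.77 for Ttr, a gene of the choroid plexus, against 8.87 to 10.15 on the others. All arrays were labelled female and went against that label. Xist, transcribed from the inactive X chromosome, lay between 5.41 and 6.02, under the 95th percentile of olfactory, vomeronasal and trace amine receptor genes (7.01 on average over the arrays), and the Y chromosome genes Eif2s3y, Uty and Kdm5d lay between 8.59 and 9.34. The granule cell markers Prox1 and Calb1 were well above that dim reference, with means of 12.36 and 12.67 at 4 weeks. All 10 precursor and lineage genes lay above it on all 10 arrays.

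For orientation, the 250 bases before the annotated start are shown for the genes whose trends over age differed from that of Olig2 in the test of differences below and whose listed start is the edge of the gene, with Olig2 itself. The sequences come from RefSeq on assembly GRCm38.p6 and run 5′ to 3′ in the direction of the gene. Capitals mark E-boxes (CANNTG), the element bound by basic helix-loop-helix factors such as the Olig proteins. The upstream windows were as follows.
Olig2, chr16:91225300-91225549, plus strand: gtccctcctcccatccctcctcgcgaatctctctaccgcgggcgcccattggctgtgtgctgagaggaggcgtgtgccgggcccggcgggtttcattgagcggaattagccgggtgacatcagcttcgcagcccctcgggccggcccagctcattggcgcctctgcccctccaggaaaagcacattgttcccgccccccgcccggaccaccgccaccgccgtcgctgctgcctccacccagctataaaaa
Cspg4, chr9:56864854-56865103, plus strand: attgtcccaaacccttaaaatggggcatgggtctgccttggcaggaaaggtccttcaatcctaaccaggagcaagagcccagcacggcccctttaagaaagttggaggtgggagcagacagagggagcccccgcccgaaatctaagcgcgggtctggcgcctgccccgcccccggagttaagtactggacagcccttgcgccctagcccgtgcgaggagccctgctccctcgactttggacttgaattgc
Lhfpl3, chr5:22745804-22746053, plus strand: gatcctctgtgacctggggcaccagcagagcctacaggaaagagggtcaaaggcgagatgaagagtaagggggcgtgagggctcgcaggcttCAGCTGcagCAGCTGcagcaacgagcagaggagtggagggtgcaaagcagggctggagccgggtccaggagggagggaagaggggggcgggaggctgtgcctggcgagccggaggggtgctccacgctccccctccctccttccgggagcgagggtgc
Matn4, chr2:164405161-164405410, minus strand: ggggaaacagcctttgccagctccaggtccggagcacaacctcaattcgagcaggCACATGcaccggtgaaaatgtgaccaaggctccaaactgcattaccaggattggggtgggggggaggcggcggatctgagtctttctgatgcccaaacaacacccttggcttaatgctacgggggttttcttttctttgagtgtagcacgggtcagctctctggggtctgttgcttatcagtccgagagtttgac
Windows were listed for 6 of the 10 genes, 7 windows in all, since Matn4 has 2. E-boxes were found on either strand in 4 of these 7 windows, against 66.2% of the 32851 windows of the same length in the table. Lhfpl3 had 2 copies, Nkx2-2 had 3, and the windows of Olig2 and Cspg4 had 0. The SOX motif ACAAAG was in 0 of the 7 windows (16.5% of all windows), and the NKX2 motif TNAAGTG was in 1, that of Nkx2-2 (10.1% of all), where it overlaps an E-box. The Olig2 window was 66.8% G and C, that of Lhfpl3 67.2%, that of Cspg4 60.4% and that of Matn4 54.4%, against a median of 52.4% over all windows.

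**Figure D1:**
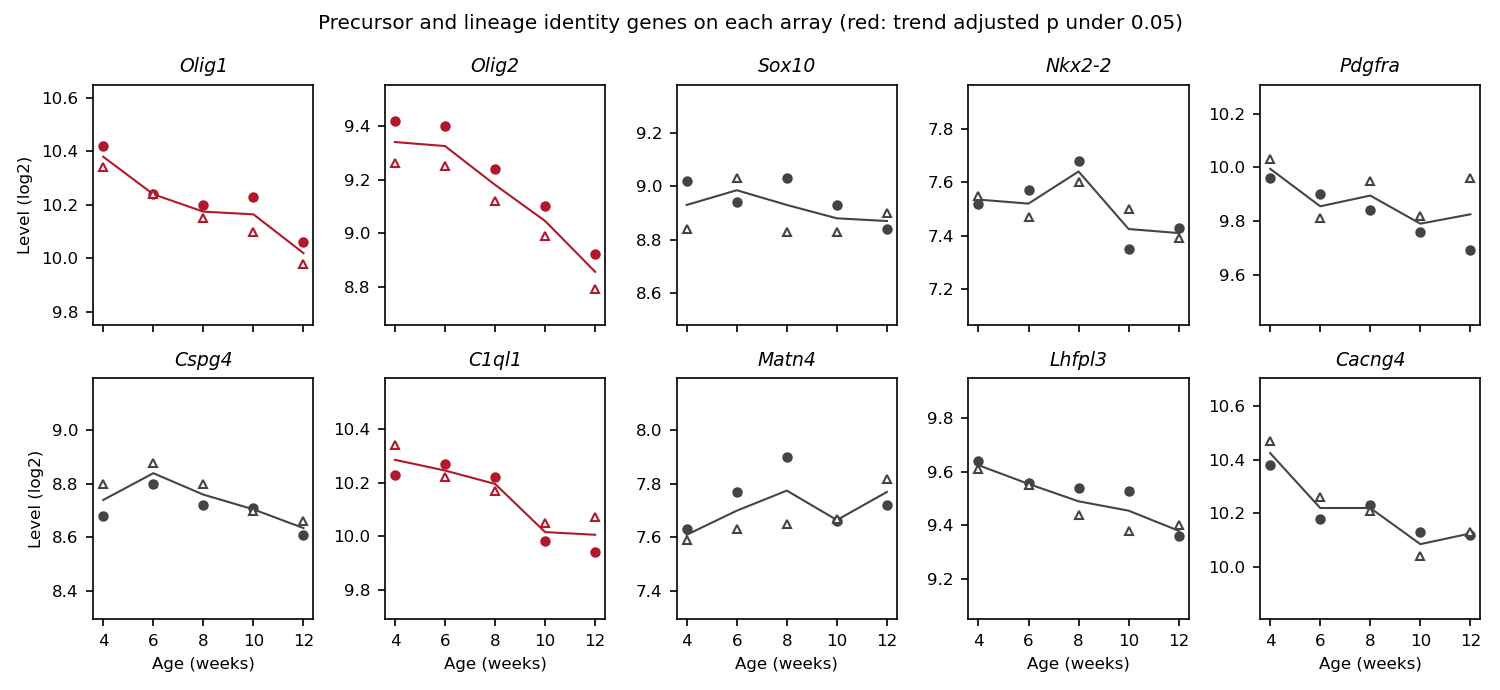
Level on each array (log2, vertical axis) against age in weeks for the 10 genes, with circles for replicate 1, triangles for replicate 2 and lines through the age means. Every panel spans the same 0.9 log2 units; the 3 genes in red passed the test for a linear trend, and both 12-week arrays lie below both 4-week arrays in 7 panels.

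Across the 5 ages, Olig2, Olig1 and C1ql1 fell, and the other 7 genes did not pass. The fitted change over the 8 weeks was negative for 9 of the 10 genes, as it was for 9631 of the 19752 genes (48.8%). The median change was −0.20 over the 10 genes and 0.00 over all genes. With limma and Benjamini-Hochberg adjustment over all genes, 3 of the 10 passed the trend test (threshold 0.05), against 0.82% of all genes in either direction and 0.673% in the falling direction. At an unadjusted p under 0.05, 5 of the 10 had a negative trend, against 7.28% of all genes. Both 12-week arrays lay below both 4-week arrays for 7 of the 10 genes, against 22.2% of all genes, and above them for 1, Matn4, against 21.6%. The age means went down at every step for 4 of the 10, Olig1, Olig2, C1ql1 and Lhfpl3, against 2.23% of all genes. These counts describe the same values on the same 10 arrays and are not independent of each other. The genes were also chosen with earlier results of these data known, so the shares over all genes are given for description only. In whole-tissue RNA, fewer cells of a type and less RNA per cell cannot be told apart.

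Olig2 encodes the basic helix-loop-helix factor that specifies the lineage. It stood at 9.42 and 9.26 at 4 weeks, 9.40 and 9.25 at 6 weeks, 9.24 and 9.12 at 8 weeks, 9.10 and 8.99 at 10 weeks, and 8.92 and 8.79 at 12 weeks. The 4- and 6-week arrays held the 4 highest values and the 12-week arrays the lowest, with no overlap between 12 weeks and any other age. Means were 9.34 ± 0.11 at 4 weeks and 8.85 ± 0.10 at 12 weeks (log2, SD, n = 2). The fitted change was −0.50 ± 0.08 (SE), or 1.41-fold lower, with an adjusted p of 0.014 in limma's trend test. The step from 4 to 6 weeks was −0.02 ± 0.09, followed by −0.14, −0.14 and −0.19 at the later steps (SE 0.09 each). Olig2 was called in 19 of 22 alternative fits, counting the mean over probe sets, which left the levels of all 10 genes unchanged. The exceptions left out the first 4-week array (adjusted p = 0.086 without 4 weeks replicate 1), the second 12-week array (0.059) or both 12-week arrays (0.20), and the change was then −0.49, −0.44 and −0.41.

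Olig1, the neighbouring basic helix-loop-helix gene, which is known for its part in oligodendrocyte maturation, lies 41091 bases beyond Olig2 on chromosome 16. In GRCm38.p6 coordinates (build mm10) Olig2 spans 91225550 to 91228677 and Olig1 91269769 to 91271939. Olig1 had 10.42 and 10.34 at 4 weeks, 10.24 and 10.24 at 6 weeks, 10.20 and 10.15 at 8 weeks, 10.23 and 10.10 at 10 weeks, and 10.06 and 9.98 at 12 weeks. Both 4-week arrays lay above, and both 12-week arrays below, the 6 arrays in between. Olig1 had a fitted change of −0.32 ± 0.06 (SE), or 1.25-fold lower, at an adjusted p of 0.034 in limma. This did not differ past the threshold from that of Olig2 (difference 0.18 ± 0.07, exact permutation adjusted p = 0.097). Olig1 was called in 10 of 22 alternatives. Its call was lost without 4 weeks replicate 1 (0.19) or 2 (0.12), 6 weeks replicate 1 (0.054) or 2 (0.066), 8 weeks replicate 2 (0.052), 10 weeks replicate 2 (0.073), or 12 weeks replicate 1 (0.097) or 2 (0.12), while the change stayed between −0.34 and −0.28 over all 22. The call was also lost without both 12-week arrays (0.27), with quantile normalization (0.077), with median centring (0.062) and with the choroid plexus level as a covariate (0.052).

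The transcription factor genes Sox10 and Nkx2-2 did not pass. Sox10, which encodes an HMG-box factor that drives myelin genes, had 9.02 and 8.84 at 4 weeks, 8.94 and 9.03 at 6 weeks, 9.03 and 8.83 at 8 weeks, 8.93 and 8.83 at 10 weeks, and 8.84 and 8.90 at 12 weeks. The 4- and 12-week arrays overlapped, and the arrays of 4 weeks differed from each other by more than the age means did. Its fitted change was −0.09 ± 0.08 (95% interval −0.25 to 0.08, limma adjusted p = 0.75), and it moved to −0.05 without 4 weeks replicate 1 and to −0.16 without 4 weeks replicate 2. Nkx2-2, a homeodomain factor gene, had 7.52 and 7.55 at 4 weeks, 7.57 and 7.47 at 6 weeks, 7.68 and 7.60 at 8 weeks, 7.35 and 7.50 at 10 weeks, and 7.43 and 7.39 at 12 weeks. Its highest values were those of 8 weeks, and both 12-week arrays lay under both 4-week arrays. The change was −0.14 ± 0.08 (95% interval −0.31 to 0.04, limma adjusted p = 0.57), and −0.09 without both 12-week arrays. Sox10 spans 79154913 to 79164490 on chromosome 15, and Nkx2-2 147176485 to 147195434 on chromosome 2.

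Neither surface marker of dividing precursors passed the trend. Pdgfra (chromosome 5, 75151322 to 75198206) had 9.96 and 10.03 at 4 weeks, 9.90 and 9.81 at 6 weeks, 9.84 and 9.95 at 8 weeks, 9.76 and 9.82 at 10 weeks, and 9.69 and 9.96 at 12 weeks. The 12-week arrays held the lowest value of the series and one equal to the lower 4-week array. The fitted change was −0.16 ± 0.08 (95% interval −0.34 to 0.02, limma adjusted p = 0.50). It was −0.10 without 12 weeks replicate 1 and −0.25 without 12 weeks replicate 2. Cspg4 (chromosome 9, 56865104 to 56899870) had 8.68 and 8.80 at 4 weeks, 8.80 and 8.88 at 6 weeks, 8.72 and 8.80 at 8 weeks, 8.71 and 8.70 at 10 weeks, and 8.61 and 8.66 at 12 weeks. Its highest mean was that of 6 weeks, 8.84 ± 0.06, and its lowest that of 12 weeks, 8.63 ± 0.04 (SD, n = 2). The change was −0.14 ± 0.07 (95% interval −0.28 to 0.01, limma adjusted p = 0.46), with −0.21 when 4 weeks replicate 1 was left out and −0.07 when both 12-week arrays were.

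Pdgfra is also expressed in perivascular and meningeal fibroblasts, and Cspg4 in pericytes. Of the 11 mural cell genes measured, 0 passed the trend in limma. The unadjusted p was under 0.05 for 3, all higher with age, the muscle genes Acta2 (0.48 ± 0.19), Myh11 (0.32 ± 0.10) and Tagln (0.19 ± 0.08). Myh11 passed when 12 weeks replicate 1 was left out. Their mean level over the list was 8.23 and 8.31 on the 4-week arrays and 8.34 and 8.54 on the 12-week arrays, and among them only Higd1b lay under the dim reference. Pdgfrb, the sister receptor gene of pericytes, had a change of −0.14 ± 0.09, and Rgs5 one of −0.05 ± 0.09. Of 10 fibroblast genes 0 passed, with 0 at an unadjusted p under 0.05; Col1a1 had −0.09 ± 0.08 and Col1a2 −0.22 ± 0.11. The fibroblast list averaged 8.53 and 8.65 at 4 weeks and 8.64 and 8.96 at 12 weeks. The higher 12-week values of both lists and of Pdgfra were on replicate 2. The part of these cells in the values of Pdgfra and Cspg4 was not tested.

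Among the ligands and relatives of the PDGF receptor, 0 of 6 genes passed, with a median change of −0.05 and 0 at an unadjusted p under 0.05. Pdgfa, the ligand through which neurons and astrocytes sustain precursors, had a change of −0.04 ± 0.05, with a mean of 10.67 at 4 weeks and 10.62 at 12 weeks. Pdgfb, the ligand known from endothelium, had −0.02 ± 0.09, Pdgfc 0.05 ± 0.06, Pdgfd −0.06 ± 0.09 and the receptor-like gene Pdgfrl −0.13 ± 0.09.

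Of the secreted proteins, C1ql1 fell and Matn4 did not pass. C1ql1 encodes a C1q-like secreted protein that binds the adhesion receptor Adgrb3 at synapses (chromosome 11, 102939264 to 102946716). It had 10.23 and 10.34 at 4 weeks, 10.27 and 10.22 at 6 weeks, 10.22 and 10.17 at 8 weeks, 9.98 and 10.05 at 10 weeks, and 9.94 and 10.07 at 12 weeks. The 4 arrays of 10 and 12 weeks all lay below the 6 arrays of the earlier ages. The step from 8 to 10 weeks was −0.18 ± 0.07 (SE) and the other 3 steps were −0.04, −0.05 and −0.01. Over the series the fit gave −0.32 ± 0.06, or 1.25-fold lower (limma adjusted p = 0.043). This call held in 7 of 22 alternatives, with changes between −0.36 and −0.29 over all 22. It was lost without 4 weeks replicate 1 (0.093) or 2 (0.17), 6 weeks replicate 1 (0.081) or 2 (0.086), 8 weeks replicate 2 (0.066), 10 weeks replicate 1 (0.079) or 2 (0.085), 12 weeks replicate 1 (0.16) or 2 (0.054), both 12-week arrays (0.19), or both arrays that stood apart (0.053). Other losses came with the replicate block (0.053), quantile normalization (0.064), the choroid plexus covariate (0.078) and log2 of age (0.054). Of its 6 relatives and receptors 0 passed: C1ql2, a granule cell gene, had 0.19 ± 0.06, C1ql3 0.03 ± 0.06 and Adgrb3 0.04 ± 0.06.

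Matn4, which encodes the matrix protein matrilin 4 (chromosome 2, 164389393 to 164405160), was the only gene of the 10 with a positive change. It had 7.63 and 7.59 at 4 weeks, 7.77 and 7.63 at 6 weeks, 7.90 and 7.65 at 8 weeks, 7.66 and 7.67 at 10 weeks, and 7.72 and 7.82 at 12 weeks. Both 12-week arrays lay above both 4-week arrays, but the highest value was that of 8 weeks replicate 1, the array that correlated least with the rest. Its change was 0.12 ± 0.08 (95% interval −0.06 to 0.30, limma adjusted p = 0.66), and 0.08 without 12 weeks replicate 2. The other matrilin genes did not pass either, with 0.05 ± 0.09 for Matn2, and Matn1 and Matn3 lay under the dim reference.

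The membrane protein genes Cacng4 and Lhfpl3 came close to the threshold without passing it. Cacng4 encodes an auxiliary subunit of AMPA-type glutamate receptors (chromosome 11, 107732357 to 107794706). It had 10.38 and 10.47 at 4 weeks, 10.18 and 10.26 at 6 weeks, 10.23 and 10.21 at 8 weeks, 10.13 and 10.04 at 10 weeks, and 10.12 and 10.13 at 12 weeks. Both 4-week arrays lay above the other 8, and the step from 4 to 6 weeks, −0.20 ± 0.07 (SE), was the largest of its 4. Over the 8 weeks the change was −0.29 ± 0.07 (95% interval −0.45 to −0.14, limma adjusted p = 0.079). It passed in 4 of 22 alternatives, without the dimmest genes (0.037), with a trended prior variance (0.026), with array weights (0.036) and on log2 of age (0.043). Lhfpl3, of a family of 4-pass membrane proteins and widely used as a precursor marker, lies on chromosome 5 at 22746054 to 23275597. It had 9.64 and 9.61 at 4 weeks, 9.56 and 9.55 at 6 weeks, 9.54 and 9.44 at 8 weeks, 9.53 and 9.38 at 10 weeks, and 9.36 and 9.40 at 12 weeks. No array of a later age reached the 4-week values. The fitted change was −0.23 ± 0.06 (95% interval −0.36 to −0.11, limma adjusted p = 0.084), and it passed in 2 of 22 alternatives, without the dimmest genes (0.038) and with array weights (0.036).

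Of 10 relatives of these membrane proteins, 1 passed the trend. Cacng5, another auxiliary subunit gene, fell by 0.41 ± 0.07 on the log2 scale (limma adjusted p = 0.018), a call that was lost without any 1 of the 4- or 12-week arrays. Cacng2 had −0.03 ± 0.06, Cacng3 0.04 ± 0.08, Cacng7 −0.05 ± 0.08 and Cacng8 0.00 ± 0.06, and Lhfpl4 had −0.02 ± 0.07. Several of these are expressed in granule neurons too, and Cacng4 itself is known from neurons.

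**Figure D2:**
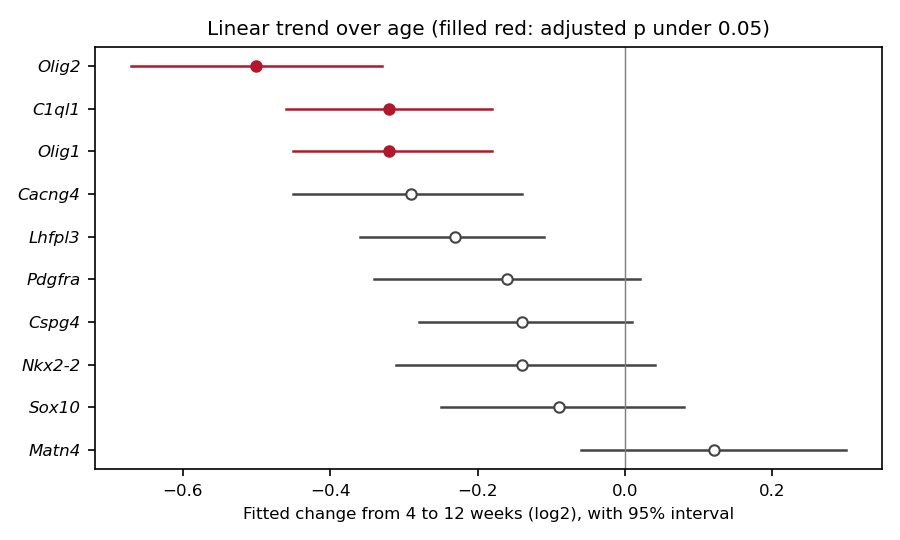
Fitted change in level from 4 to 12 weeks (log2, horizontal axis) with its 95% interval from limma for each of the 10 genes. Filled red points passed the adjusted threshold; Olig2 lies at −0.50, and the intervals of Cacng4 and Lhfpl3 also lie wholly below 0 although their adjusted p did not pass.

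Tests by age as a factor gave no calls among the 10 genes. In the F-test over any difference among ages 0 of the 10 passed, against 0.167% of all genes (33 genes by limma). At an unadjusted p under 0.05 there were 4, Olig1, Olig2, C1ql1 and Cacng4, against 8.46% of all genes. In the comparison of 12 with 4 weeks 0 passed in limma, against 0.516% of all genes (102 genes). At an unadjusted p under 0.05, 5 were lower at 12 weeks, against 5.43% of all genes. They were Olig2 (−0.49 ± 0.09, adjusted p = 0.069), Olig1 (−0.36 ± 0.07, 0.086), Cacng4 (−0.30 ± 0.07, 0.14), C1ql1 (−0.28 ± 0.07, 0.20) and Lhfpl3 (−0.24 ± 0.07, 0.28). These use the ends of the same series and are not independent of the trend. Between 12 and 4 weeks Olig2 passed in 6 of 20 alternatives, Olig1 in 3 and Cacng4 in 1. None of the 19752 genes passed in any of the 4 successive steps by limma (0% each). The shares at an unadjusted p under 0.05 were 4.13% (815 genes) from 4 to 6 weeks, 6.25% (1234) from 6 to 8, 4.79% (946) from 8 to 10 and 5.59% (1104) from 10 to 12. Of the 10 genes, 1 was among them in the first step, Cacng4, and 2 in the third, Nkx2-2 (−0.21 ± 0.07) and C1ql1, with 0 in the others.

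Whether the genes differed from each other was tested on the within-array difference of each pair, with its slope over age set against all 113400 arrangements of the ages over the arrays. Of 45 pairs, 10 passed after Benjamini-Hochberg adjustment over the pairs (exact permutation test, two-sided) and 21 had an unadjusted p under 0.05. Olig2 was in 5 of these 10 pairs and Matn4 in 6. Olig2 fell more than Sox10 by 0.41 ± 0.08 on the log2 scale (exact adjusted p = 0.0077), more than Cspg4 by 0.36 ± 0.10 (0.039), more than Nkx2-2 by 0.36 ± 0.10 (0.043) and more than Lhfpl3 by 0.27 ± 0.07 (0.034). Against Pdgfra the difference was 0.34 ± 0.15, which did not pass (0.097). Matn4 differed from Olig2 by 0.62 ± 0.09 (0.0032), from C1ql1 by 0.44 ± 0.06 (0.0044) and from Olig1 by 0.44 ± 0.11 (0.034). It also differed from Cacng4 by 0.41 ± 0.11 (0.037), from Lhfpl3 by 0.35 ± 0.08 (0.034) and from Nkx2-2 by 0.26 ± 0.07 (0.038), in each case as the higher change. Pdgfra, Cspg4, Sox10 and Nkx2-2 had differences of at most 0.07 among themselves, none of which passed. Nkx2-2 and Matn4, with means of 7.51 and 7.71 over the arrays, lay nearest of these genes to the dim reference (7.01). The part of low signal in their differences from brighter genes was not tested.

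The pair counts depended on single arrays. With 4 weeks replicate 1 left out 3 passed, and with 4 weeks replicate 2 left out 5. Leaving out 8 weeks replicate 2 gave 4, leaving out 10 weeks replicate 1 gave 6, and leaving out 10 weeks replicate 2 or either 12-week array gave 3. Without both 12-week arrays 0 passed by the same exact permutation test. The pairs of Olig2 with Sox10, Olig2 with Matn4 and C1ql1 with Matn4 each passed in 14 of 15 alternatives, all but the one without the 12-week arrays. The other 7 pairs passed less often. Olig2 with Lhfpl3, Olig1 with Matn4 and Lhfpl3 with Matn4 each passed in 7. Olig2 with Cspg4 and Cacng4 with Matn4 passed in 6, Nkx2-2 with Matn4 in 5 and Olig2 with Nkx2-2 in 3. Median centring and probe set means are counted among the 15 but cannot change a within-array difference of these genes. Each of the 10 pairs therefore passed under them by construction. Apart from them, Olig2 with Nkx2-2 passed only without 10 weeks replicate 1.

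**Figure D3:**
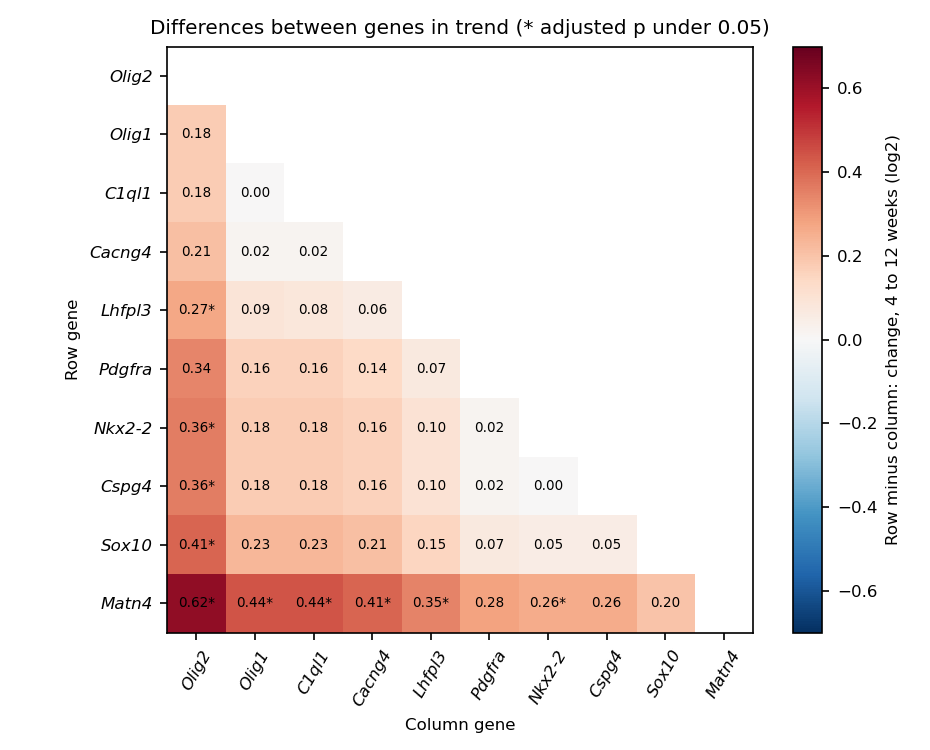
Difference between each pair of genes in the fitted change from 4 to 12 weeks (row gene minus column gene, log2, colour scale and numbers), with genes ordered from the most negative change. Stars mark the 10 of 45 pairs past the adjusted threshold of the exact permutation test; all of them lie in the Olig2 column or the Matn4 row.

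Other genes of the lineage were counted beside these 10. Of 17 further precursor genes measured, 0 passed in limma and the median change was −0.04; 6 were lower and 1 higher at an unadjusted p under 0.05. Gjc3, a connexin gene, had the lowest change, −0.34 ± 0.09, followed by the adhesion gene Pcdh15 with −0.28 ± 0.09 and the proteoglycan gene Vcan with −0.24 ± 0.07, while Luzp2 had 0.21 ± 0.06 and Megf11 0.01 ± 0.06. Gjc3 passed when 4 weeks replicate 2 was left out, and 1 gene of the list passed with a trended prior variance or array weights. Of 21 other transcriptional regulators of the lineage 0 passed and 4 were lower at an unadjusted p under 0.05, with a median of −0.06. Zfp488, a cofactor of Olig2, came closest (−0.33 ± 0.07, limma adjusted p = 0.056). It passed when 8 weeks replicate 1 was left out, without the dimmest genes, with a trended prior variance and with array weights. Sox5, Sox6 and Myrf had −0.06 ± 0.06, −0.04 ± 0.06 and −0.11 ± 0.08. The mean level of the further precursor genes was 9.93 and 9.92 on the 4-week arrays and 9.82 and 9.84 on the 12-week arrays.

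Calls were also made among genes of later stages of the lineage. All 16 genes of newly formed oligodendrocytes had negative changes and 5 fell, with a median of −0.20. Those were Enpp6, Bmp4, Gpr17, Tmem163 (−0.56 ± 0.07) and Bcas1 (−0.40 ± 0.08), with Enpp6 at −1.18 ± 0.15 as the largest. Without both 12-week arrays 2 of the 16 passed, Enpp6 and Bmp4. The call of Bcas1 was also lost with quantile normalization, median centring or the choroid plexus covariate. It was lost too with any single array of 4, 6, 10 or 12 weeks left out. Of 16 myelin genes 8 fell and 0 rose past the threshold, with a median of −0.47, against −0.20 over the 10 precursor and lineage genes. The change was negative for 13 of the 16 and positive for Gjb1 (0.12 ± 0.10), Hapln2 (0.13 ± 0.11) and Trf (0.14 ± 0.13). The 6 of smallest p were Mog, Tspan2, Cldn11, Mag, Cnp (−0.57 ± 0.09) and Mal (−0.46 ± 0.07), and 4 of the 16 passed without either 4-week array. The newly formed list averaged 9.32 and 9.31 at 4 weeks and 8.94 and 8.96 at 12 weeks, and the myelin list 10.15 and 10.10 at 4 weeks and 9.74 and 9.81 at 12 weeks. In neither list did the arrays of 4 and 12 weeks overlap, but this was not particular to them. The means of the 10 genes did not overlap either (9.29 and 9.28 at 4 weeks, 9.07 and 9.11 at 12 weeks). Nor did those of the further precursor genes or of the astrocyte genes (11.16 and 11.12 against 11.07 and 11.09), while those of the microglial genes did. The difference between the newly formed or myelin list and the 10 genes was not tested.

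Genes of other cells of the gyrus were counted in the same way. All 10 neuroblast genes had negative changes and 7 fell past the threshold. Their mean levels over the list were 10.15 and 10.21 at 4 weeks against 9.23 and 9.20 at 12 weeks. Of 14 cell cycle genes 13 had negative changes and 6 fell past the threshold, with a median of −0.37. Dcx had −1.34 ± 0.13 and Mki67 −0.87 ± 0.12. Leaving out the first or the second 4-week array gave a cell cycle count of 2 or 3. Of the astrocyte, microglial, endothelial, ependymal and choroid plexus genes 0 passed, of 10, 7, 7, 6 and 9. Of the choroid plexus genes 2 passed, Kl and Sostdc1, when 6 weeks replicate 1 was left out or without both arrays that stood apart. The same 2 passed with the list as a covariate. That covariate is a mean that includes these genes, so this fit does not give their plain trend over age. Of the astrocyte genes 1 passed with a trended prior variance. The granule cell list had 1 higher (Ntng1, 0.55 ± 0.09) and 1 lower (Tdo2, −0.44 ± 0.08) of 8. That count of 2 was 0 with either 4-week array, 12 weeks replicate 1 or both 12-week arrays left out. It was 1 with either 6-week array, 10 weeks replicate 2 or 12 weeks replicate 2 left out, with median centring and with the choroid plexus covariate. Dividing neural progenitors share cell cycle genes with dividing precursors, and their part in the values of the 10 genes was not tested.

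**Figure D4:**
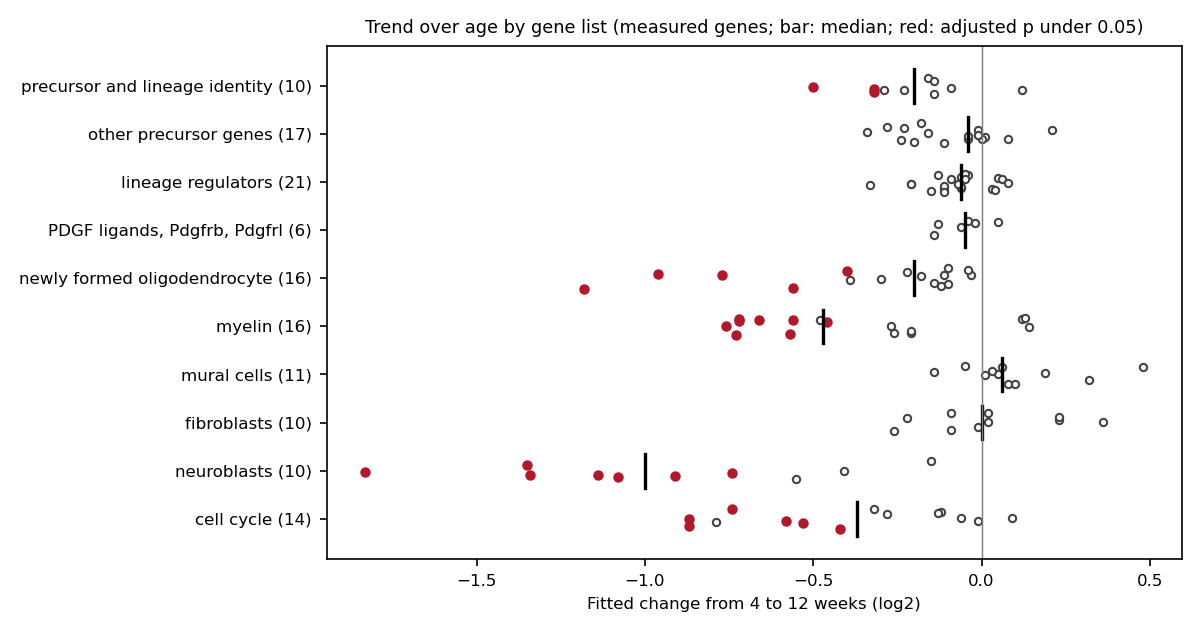
Fitted change from 4 to 12 weeks (log2, horizontal axis) of every measured gene in 10 lists, 1 point a gene, with a black bar at the list's median and the number of genes in brackets. Red points passed the trend over all genes; precursor and lineage identity genes reach −0.50, while newly formed oligodendrocyte genes reach −1.18 and neuroblast genes −1.83.

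The genes whose values over the 10 arrays were most like the mean of the 10 centred profiles were Arrb2 (r = 0.969), Sipa1 (0.963), Rcan3 (0.956), Def8 (0.954) and A130010J15Rik (0.953). These are Pearson correlations over arrays that share the age effect. Their fitted changes were −0.33, −0.26, −0.40, −0.15 and −0.23.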

How the data were processed

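The deposited values are log2 expression per probe set of 10 arrays, with like medians (8.27 to 8.31). The log base was inferred from their range (2.50 to 15.04), and how the submitters corrected, summarized and normalized the signals is not given in the sources used here. The genome build was mm10, per the submitters' processing notes. Of 25254 probe sets, 21496 named 1 gene in the platform annotation, 1565 several and 2193 none. Only the first were used, with the brightest per gene, which left 19752 genes and no filter on dim ones. Coordinates come from RefSeq (GRCm38.p6).

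Tests used limma 3.58.1 in R 4.3.3: age as a numeric term (8 residual degrees of freedom), or as a factor (5), two-sided, with Benjamini-Hochberg adjustment over all genes and a threshold of 0.05. Changes are log2 over 8 weeks with standard errors, and the number of arrays limits their precision. Differences between genes used an exact permutation test (Python 3.11.15, numpy 2.4.6). The fits were tested on simulated data. The genes and lists were chosen with earlier results of these data known. Named from each list were genes past the threshold (up to 6) and its first 2, except that lists of other cells are mostly given by counts; further genes were chosen after their values were seen. Same-numbered arrays of different ages had deviations from the age means that correlated between −0.34 and 0.16 over 10 pairs of ages (over 0.1 in 3). Numbers were therefore not taken to pair samples. Olig2, however, was higher on replicate 1 than on replicate 2 at each age. With the replicate block the SE of its trend was 0.06, against 0.08 without it. Alternatives covered the replicate block, normalization, dim genes, variance priors, array weights, probe set means, the choroid plexus level, log2 of age and omitted arrays.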

Additional observations from a re-analysis of the deposited data

How the results depend on the processing

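Of the 10 genes, 3 passed the trend. The number was 5 with the dimmest 30% of genes left out or with array weights, 1 with quantile normalization or the choroid plexus covariate (Olig2 each time), 0 without the 12-week arrays, and 0 to 3 with single arrays left out. Between 12 and 4 weeks 0 of them passed, but 1 did with the replicate block, 2 with the dimmest genes left out or with array weights, 3 with a trended prior variance, and 0 to 1 with single arrays left out. In the F-test 1 passed with a trended prior variance. Of the 45 pairs, 10 passed, 3 with quantile normalization, 0 without the 12-week arrays and 3 to 12 with single arrays left out. No change in direction was seen for the trend of any of the 10 genes; between 12 and 4 weeks Sox10 ranged from −0.15 to 0.04 with single arrays left out and turned positive without 4 weeks replicate 1.

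Over all genes the trend called 162, with 29 (17.9%) higher. Quantile normalization gave 61 higher of 193 (31.6%). Counts were 337 with the dimmest genes left out, 350 with a trended prior variance, 417 with array weights, 51 without the 12-week arrays and 35 to 279 with single arrays left out. In the same order of settings the F-test, 33 in the design used, gave 69, 151, 69, 3 and 5 to 50, with 17 for the choroid plexus covariate. The comparison of 12 with 4 weeks, 102 in the design used, gave 210, 303 and 261, and 13 to 188 with single arrays left out. With the replicate block, which was not taken as a pairing, the F-test gave 13, the comparison of 12 with 4 weeks 66 and the trend 161, and C1ql1 lost its call. From 4 to 6 weeks, where 0 passed, there was 1 with quantile normalization, 3 with the dimmest genes left out, 10 with a trended prior variance, 3 with array weights and 0 to 10 with single arrays left out. From 6 to 8 weeks single arrays moved the count from 0 to 1079, the latter without 8 weeks replicate 2. From 10 to 12 weeks the count of 0 became 2, 3, 9 and 4 under the same settings as from 4 to 6 weeks, 1 with the choroid plexus covariate, 2 without both arrays that stood apart, and 0 to 1 with single arrays left out. None of these step calls was among the 10 genes. Causes were not tested. The number of arrays limits every comparison, most of all those between ages with 2 arrays each.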
